A study of Drosophila melanogaster with 3 samples.

Results

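The intergenic peaks of CG3995 away from promoters were regions of DNA recovered with this protein that lay in no annotated gene and over 500 bp from every annotated transcription start. CG3995 is named bdwf in the annotation (FBgn0038472). The protein was mapped by chromatin immunoprecipitation followed by sequencing (ChIP-seq) in whole Drosophila melanogaster embryos of both sexes, collected 0 to 24 hours after laying. All embryos came from one transgenic line that stably made CG3995 with green fluorescent protein at its C terminus, and the bound DNA was recovered through that tag. The 3 libraries were biological replicates of 1 group, with no second genotype, treatment or stage, and no control library was analysed here. In a whole embryo, weak binding in many cells and strong binding in few cells cannot be told apart.

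Members were the peaks of the authors' thresholded list whose summit, the point of highest enrichment, met both conditions of position. They numbered 240 of 4260 peaks, 5.63% (Wilson 95% interval 4.98 to 6.37%, counting error only). A further 3199 summits lay within 500 bp of a start (promoter peaks below), and 821 lay inside a gene farther from any start. Among the 4260 strongest regions of each replicate list, the same rule found 229 regions in replicate 1, 223 in replicate 2 and 257 in replicate 3, a share of 5.55% ± 0.43 (SD, n = 3). The bases that the rule admits made up 27.1% of the sequenced chromosome arms and are the baseline for position below. The summits nearest to the distance limit were much alike in position. Just inside it were summits 501 bp upstream of CG43886 (signal 134), 501 bp upstream of CG17896 (signal 634) and 502 bp upstream of CG3505 (signal 135). Just outside it were summits 497 bp upstream of CG9743 (signal 445), 492 bp upstream of GstT4 (signal 139.6) and 488 bp upstream of CG6602 (signal 189.6).

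Intergenic DNA in the fly holds enhancers, which raise transcription of genes at a distance, insulators, which limit contact between neighbouring domains, and starts of transcripts that the annotation may lack. DREF is a zinc finger protein that binds the DNA replication-related element (DRE) at promoters of many housekeeping genes. Su(Hw) is a zinc finger protein that binds the gypsy insulator and many other sites outside promoters. The authors' signal, used here to rank peaks within a list, measures enrichment over a control file, and rank 1 is the strongest region of a list. A dm6 position is given for each sequence, and the bases are those of the RefSeq genome file, plus strand.

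The 5 members with the largest signal on the arms from which sequence is shown are given first, with 50 bp to each side of the summit, to show the sites with the most enrichment. Capitals mark the DRE core CGATA on either strand, which 1 of the 5 held.
Rcd2/lncRNA:TS3: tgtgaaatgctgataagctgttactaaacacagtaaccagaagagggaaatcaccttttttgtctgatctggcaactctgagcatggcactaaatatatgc
Trf4-2/CG11771: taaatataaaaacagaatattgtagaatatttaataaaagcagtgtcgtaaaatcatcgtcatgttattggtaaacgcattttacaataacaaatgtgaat
del/E2f2: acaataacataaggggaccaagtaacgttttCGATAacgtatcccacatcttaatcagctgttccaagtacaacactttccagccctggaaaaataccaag
Ugt37D1/CG13280: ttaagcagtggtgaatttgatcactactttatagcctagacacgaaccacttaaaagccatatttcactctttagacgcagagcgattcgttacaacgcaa
CG5445/B-H2: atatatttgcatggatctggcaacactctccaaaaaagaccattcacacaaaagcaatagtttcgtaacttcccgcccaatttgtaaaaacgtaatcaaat
The first window, chr3L:20541684-20541784, lay 1317 bp upstream of Rcd2, a gene named from a screen for centrosome assembly. The second, chr3R:24927071-24927171, lay 36 bp past the 3' end of Trf4-2, which encodes a member of the poly(A) polymerase family. The third, chr2L:21154003-21154103, lay 240 bp past the 3' end of E2f2, a cell cycle transcription factor, and on its other side was del, whose protein acts in transcription of piRNA clusters. The fourth, chr2L:16801919-16802019, lay 57 bp past the end of CG13280 in a gap of 441 bp between it and Ugt37D1, a UDP-glycosyltransferase gene. The fifth, chrX:17305736-17305836, lay 311 bp past the end of CG5445, with the homeobox gene B-H2 on the other side.

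A run of 6 bases, AGTCAC, was shared by 41 of the 240 members within 50 bp of the summit, and 15 held it within the longer CAGTCACA. These windows are shown because they hold a sequence that recurred well above its level in intergenic DNA. The run was picked from a scan of every sequence of 8 bases after the values were seen. The 6 strongest windows with CAGTCACA on the arms shown follow, with AGTCAC or its reverse complement GTGACT in capitals.
hry/lncRNA:CR44526: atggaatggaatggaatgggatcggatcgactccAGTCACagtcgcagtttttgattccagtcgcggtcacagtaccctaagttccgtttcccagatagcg
Rdl/Slc45-1: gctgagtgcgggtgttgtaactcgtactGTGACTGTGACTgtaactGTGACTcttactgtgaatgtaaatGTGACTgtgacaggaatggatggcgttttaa
Ir67c/Gem3: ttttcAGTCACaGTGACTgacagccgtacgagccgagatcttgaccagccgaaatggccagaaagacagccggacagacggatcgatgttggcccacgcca
phu/RhoL: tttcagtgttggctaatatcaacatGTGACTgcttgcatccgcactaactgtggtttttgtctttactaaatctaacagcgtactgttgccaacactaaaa
CG43098/lncRNA:CR43484: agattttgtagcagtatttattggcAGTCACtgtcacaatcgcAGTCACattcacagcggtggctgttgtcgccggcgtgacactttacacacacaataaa
aop/lncRNA:CR43751: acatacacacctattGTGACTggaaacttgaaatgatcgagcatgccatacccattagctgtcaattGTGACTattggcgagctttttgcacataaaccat
The strongest was chr3L:8688806-8688906 between hry, the pair-rule repressor hairy, and lncRNA:CR44526. The next was chr3L:9184006-9184106, which lay 1907 bp upstream of Rdl, a GABA receptor subunit gene, and held the run more than once. The others were chr3L:10451859-10451959 near Gem3, chr3R:9496909-9497009 near RhoL, chr3L:3668931-3669031 near CG43098 and chr2L:2179553-2179653, which lay 849 bp upstream of aop, an Ets-family repressor gene. Their ranks ran from 418 in replicate 1 for the window near hry to 4249 in replicate 2 for the window near aop.

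The full palindromic DRE, TATCGATA, was found in 7 members. The 4 strongest of them on the arms shown are given because the DRE was far more frequent at promoter peaks (9.03%) than in members, and here it lay away from any annotated start. Capitals mark CGATA or TATCG.
CR12460/mRpS5: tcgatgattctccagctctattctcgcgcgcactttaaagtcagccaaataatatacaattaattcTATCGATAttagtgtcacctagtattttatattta
CG31523/sac: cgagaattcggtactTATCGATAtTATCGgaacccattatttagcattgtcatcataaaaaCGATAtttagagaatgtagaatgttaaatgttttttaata
CG7907/CheB93a: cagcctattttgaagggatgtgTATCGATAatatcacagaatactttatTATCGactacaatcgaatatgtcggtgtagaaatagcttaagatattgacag
lncRNA:CR44526/SrpRbeta: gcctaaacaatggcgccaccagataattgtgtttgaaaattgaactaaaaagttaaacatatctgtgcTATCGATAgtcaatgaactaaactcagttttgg
The first, chr3L:24536113-24536213, lay 1073 bp upstream of mRpS5, a mitochondrial ribosomal protein gene, and ranked 523, 439 and 426 in replicates 1, 2 and 3. The second, chr3R:4479746-4479846, lay 589 bp upstream of CG31523. The third, chr3R:21406891-21406991, lay 504 bp upstream of CheB93a, only 4 bp beyond the distance limit. The fourth, chr3L:8718732-8718832, lay 1443 bp downstream of the start of SrpRbeta, a signal recognition particle receptor subunit gene.

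The Su(Hw) core GCATACTT was found in 6 members, and 4 are shown because this core, unlike the DRE, was more frequent in members than at promoter peaks. Capitals mark the core or its reverse complement.
CG11349/CG7465: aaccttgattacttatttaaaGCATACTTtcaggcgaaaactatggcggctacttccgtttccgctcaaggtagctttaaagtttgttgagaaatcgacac
ninaE/CG4733: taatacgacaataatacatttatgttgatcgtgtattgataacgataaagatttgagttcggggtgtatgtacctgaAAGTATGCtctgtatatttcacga
Cnx99A/lncRNA:CR45547: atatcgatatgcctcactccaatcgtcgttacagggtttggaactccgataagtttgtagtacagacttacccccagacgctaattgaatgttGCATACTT
scyl/lncRNA:CR44720: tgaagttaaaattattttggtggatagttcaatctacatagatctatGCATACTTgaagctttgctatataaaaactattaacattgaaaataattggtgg
They lay at chr3L:4475101-4475201 near CG11349, chr3R:19889668-19889768 between the rhodopsin gene ninaE and CG4733, chr3R:29320152-29320252 between Cnx99A and lncRNA:CR45547, and chr3L:11256649-11256749 beside scyl, an inhibitor of TOR signalling. None was among the strongest members, with signals from 139.6 beside scyl to 225 near CG11349. The window near Cnx99A also held a DRE, and its replicates did not match, with ranks of 4342, 1382 and 19665.

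The members with the largest pooled signal ranked high in each replicate, whose reads were part of the pool. The peak near Rcd2 had a signal of 3743, the largest of the members, and ranked 192 in each of the 3 replicates. The peak near Trf4-2 (signal 2284) ranked 249, 292 and 230 in replicates 1, 2 and 3, and the peak near E2f2 (signal 2148) ranked 258, 267 and 241. All 20 members with the largest signal were among the 4260 strongest regions of all 3 replicates, with a weakest rank of 701 in replicate 1, 672 in replicate 2 and 977 in replicate 3. The strongest promoter peak had a signal of 50371, and the best rank of a member in the thresholded list was 186.

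**Figure D1:**
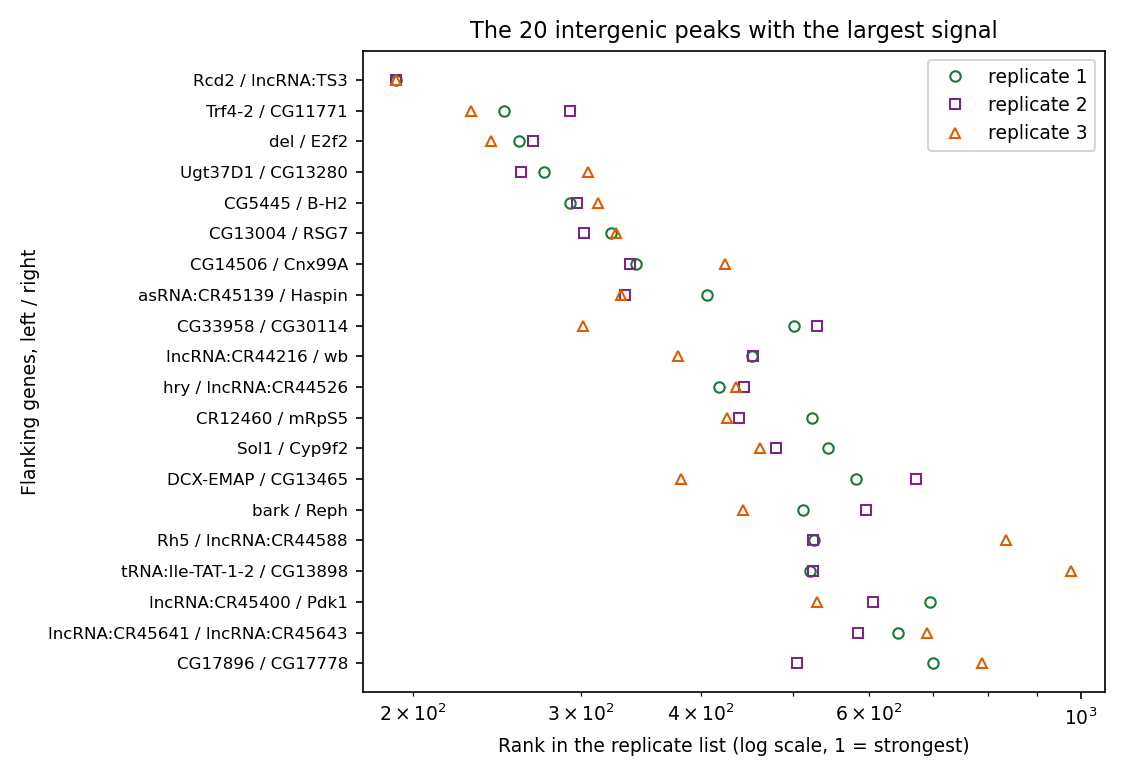
Ranks of the 20 intergenic peaks with the largest signal in the list of each replicate (x axis, log scale, 1 is the strongest region), named by their flanking genes. The ranks run from 192 for the peak by Rcd2 to 977 in replicate 3 for the peak by tRNA:Ile-TAT-1-2.

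The other strong members lay beside genes of many functions. The peak between CG13004 and RSG7, a regulator of G-protein signalling, had a signal of 1517 and ranked 322, 302 and 326. The peak between CG14506 and the calnexin gene Cnx99A had a signal of 1254 and ranked 342, 337 and 424. The peak 1335 bp upstream of the histone H3 kinase gene Haspin had a signal of 1240 and ranked 406, 333 and 330. The ranks of these 3 peaks ran from 302 to 424. The peak between CG33958 and CG30114 had a signal of 1024 and ranked 501, 530 and 301. The peak 10441 bp upstream of wb, a laminin alpha chain gene, had a signal of 975 and ranked 453, 454 and 379. The peak beside hry had a signal of 963 and ranked 418, 444 and 436, and the peak near mRpS5 had a signal of 889. The next 8 had signals from 634 to 807. They lay at Sol1/Cyp9f2 (nearest start DNAlig3, a DNA ligase gene), DCX-EMAP/CG13465, bark/Reph, the rhodopsin gene Rh5 and lncRNA:CR44588, tRNA:Ile-TAT-1-2/CG13898, lncRNA:CR45400 and the kinase gene Pdk1, lncRNA:CR45641/lncRNA:CR45643 and CG17896/CG17778. Of these 20 peaks, 13 lay in gaps whose neighbours point the same way, 4 between converging genes and 3 between diverging genes. Over all members these shares were 50.8, 21.25 and 27.9%, and over admitted bases 50.3, 25.7 and 20.4%. The nearest protein-coding gene had a promoter peak of its own for 4 of the 20, beside 17.5% of all members and 14.2% of admitted bases.

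As a group the members were weaker than promoter peaks, and their median was close to that of peaks inside genes. Their median signal was 189.7, against 243 for promoter peaks and 189.1 for peaks inside genes. Their lowest and highest values were 127 and 3743. Among the members 88, or 36.7%, lay above the median signal of all thresholded peaks, 37 were among the 852 strongest of the list (15.4%) and 69 among the 852 weakest (28.75%). The median rank of members was 2811.5, 2705 and 2526 in replicates 1, 2 and 3, against 2068.5, 2088.5 and 2094 for all other thresholded peaks. Members thus stood lower in each replicate, by 597 ± 156 ranks (mean ± SD, n = 3), with p = 0.25 by an exact two-sided sign-flip permutation test over replicates, the smallest p that 3 replicates allow. The difference was smaller among peaks above the median signal (109 ranks), with the distance limit set at 250 bp (235) and without replicate 1 (265) or 2 (321.5). The values without replicate 1 or 2 used only the 3191 or 3254 thresholded peaks found in each remaining replicate. The part of that filter in the smaller difference was not tested. Against promoter peaks the difference was 744 ± 158 ranks (exact p = 0.25). Against peaks inside genes it was 147.5, 84 and -96 ranks in the 3 replicates (mean 45.2 ± 126, exact p = 0.75), which was smaller than its spread.

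**Figure D2:**
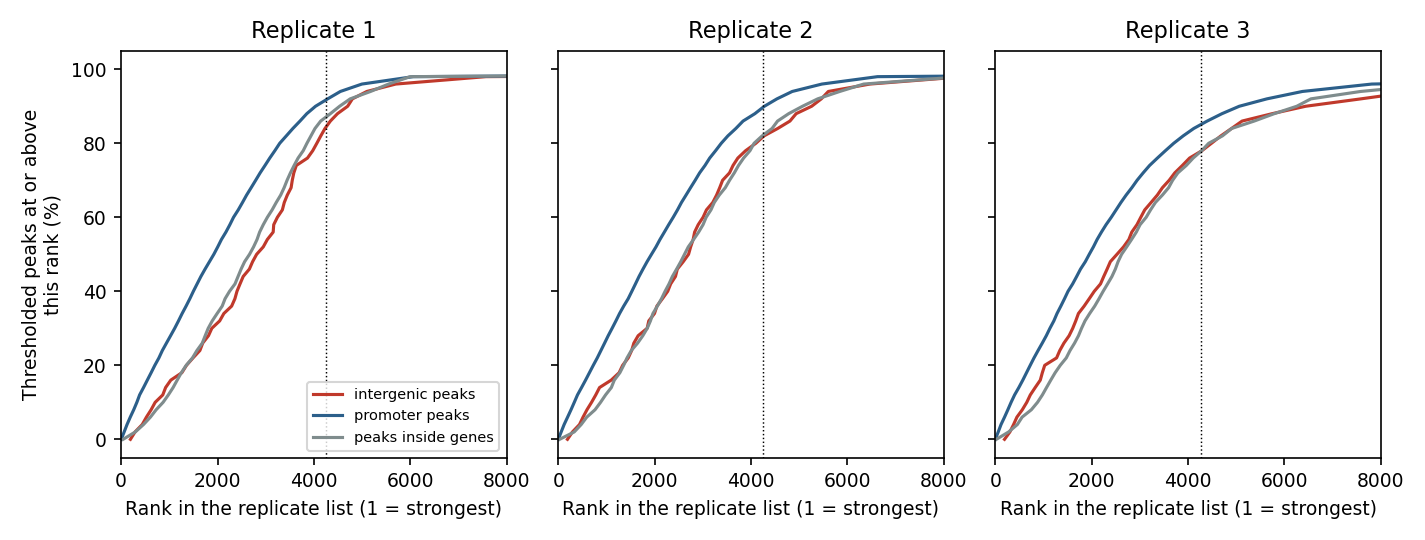
Share of thresholded peaks (y axis, %) at or above a rank in each replicate list (x axis, 1 is the strongest) for the 240 intergenic peaks, 3199 promoter peaks and 821 peaks inside genes, with the dotted line at rank 4260. The intergenic curve lies below the promoter curve in all 3 panels (median ranks 2811.5, 2705 and 2526 against 1923, 1936 and 1951) and near the curve of peaks inside genes.

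Of the regions in the authors' pooled list, 15.3% were in the thresholded list. The share was 6.02% of the 3986 intergenic regions (5.32 to 6.80%), 5.99% of the 13711 regions inside genes and 31.5% of the 10171 promoter regions. Among the thresholded peaks 70.3% were covered by the 4260 strongest regions of all 3 replicates. For members the count was 144 of 240, or 60.0% (53.7 to 66.0%), below that background, and for promoter peaks 73.8%. Peaks inside genes stood at 59.4%. Of the remaining members 59 were covered in 2 replicates, 34 in 1 and 3 in none (24.6, 14.2 and 1.25% of members). Over all thresholded peaks these shares were 21.3, 8.10 and 0.352%. Each replicate covered 202, 196 and 186 members (84.2, 81.7 and 77.5%), against 90.4, 87.9 and 83.1% of all thresholded peaks. In replicates 1 and 3 respectively, 3 and 6 members had no region at their summit anywhere in the list, and in replicate 2 every member had one. Among the 4020 other thresholded peaks, 25, 18 and 58 had none in replicates 1, 2 and 3. The list of replicate 1 held exactly 30000 regions, which may be a limit on its length, so an absence there may mean only a lower rank. The thresholded list was made from these same replicates, so these shares describe the list and are no separate check of it.

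Members lay nearer to starts than intergenic bases do. Their median distance to the nearest start was 1588 bp (quartiles 857 and 3922 bp), against 5886 bp (2431 and 15940 bp) for the admitted bases. The 3 replicates gave 1510, 1592 and 1675 bp, 1592 ± 82.5 bp (SD, n = 3), each below the value for bases (exact p = 0.25). Within 1000 bp of a start lay 73 members, 30.4% against 7.79% of bases, and within 2000 bp lay 141 (58.75 against 20.4%). The nearest start belonged to a protein-coding gene for 177 members, to a long or antisense RNA gene for 57, to a tRNA gene for 5 and to a snoRNA gene for 1. A summit upstream of its nearest start was found for 151 members, 62.9% (56.6 to 68.8%), against 58.8% of bases, a difference within counting error.

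**Figure D3:**
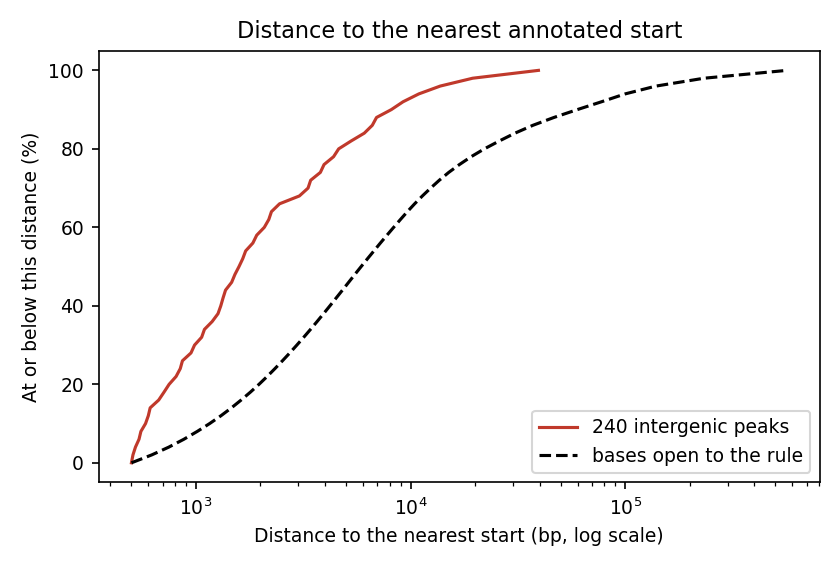
Cumulative share (y axis, %) of the 240 intergenic peaks and of all bases open to the rule by distance to the nearest annotated start (x axis, bp, log scale). The medians are 1588 bp for the peaks and 5886 bp for the bases.

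Members also lay near the 3' ends of genes. Within 500 bp of the 3' end of a flanking gene lay 50 members, 20.8% (16.2 to 26.4%), against 6.27% of admitted bases. The replicates gave 20.1, 22.4 and 19.1%, 20.5 ± 1.72% (SD, n = 3), which was 14.3 percentage points above bases (exact p = 0.25), and all 3 were above. Within 250 bp lay 28 members, 11.7% against 3.48% of bases. Among the 20 strongest members 7 lay within 500 bp of such an end, at Trf4-2 (36 bp), CG13280 (57 bp), DCX-EMAP (68 bp), Cyp9f2 (163 bp), E2f2 (240 bp), bark (305 bp) and CG5445 (311 bp). The gaps that held members were also shorter, with a median of 5886 bp against 19272 bp for the gap in which a base lay. A short gap brings starts and ends near together, and the part of gap length in both distances was not tested.

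The admitted bases included repeated DNA, and member windows had no close copy elsewhere. Of 17951 intergenic windows spread evenly over the admitted bases, 27.2% had a copy elsewhere in the assembly (at least 95% identity over 90 bp or more). None of the 240 members had one, which allows a share of up to 1.25%. Among all thresholded peaks 4 of 4260 had one (0.094%), so the lack of copies was not particular to members. With windows that had no copy as the baseline, the median distance to a start was 4158 bp and the share within 500 bp of a gene end was 7.98%, so both differences from members kept their direction. How reads with several placements were treated is not given in the sources used here. Summits inside annotated transposable elements were 4, beside eIF3f1, CaMKI, pho and CG3107, with signals of 347, 342, 199 and 173. They made up 1.67% of members, against 10.9% of bases and 0.329% of all thresholded peaks. The windows of 16 members were over 50% masked as repeats (6.67% against 18.7% of tiled windows and 5.49% of all thresholded peaks). The median GC content was 38.6%, against 40.6% for tiled windows and 37.6% for all thresholded peaks.

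The orientation of neighbouring genes, compared with intergenic bases, varied with the distance from a start. Diverging neighbours flanked 67 members, 27.9% (22.6 to 33.9%), against 20.4% of bases, and the replicates gave 28.8, 27.4 and 25.7% (27.3 ± 1.57%, exact p = 0.25). That difference of 6.92 percentage points was 2.65 over 1000 bp from every start, 11.6 over 250 bp, 4.001 against windows with no copy elsewhere, 3.74 with transposable elements counted as genes and 1.92 among peaks above the median signal. Neighbours in tandem flanked 122 members (50.8 against 50.3%) and converging neighbours 51 (21.25 against 25.7%). The converging difference of -3.80 points in the replicates was -11.2 over 250 bp and 1.53 over 1000 bp. Within 2000 bp of a start the diverging share was 33.9 ± 1.93% in the replicates against 30.2% of bases. Farther than that it was 18.2 ± 0.22% against 17.9%, and in the thresholded list 17 of 99 members (17.2%), below the bases. For converging neighbours the replicates were below the bases within 2000 bp of a start (12.8 ± 0.96 against 15.9%) and above them farther out (34.2 ± 2.63 against 28.2%), each with exact p = 0.25. The lower converging share of all members therefore did not hold at both distances.

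The protein-coding gene with the nearest start had a promoter peak of its own for 42 members, 17.5% (13.2 to 22.8%). Among all protein-coding genes 28.2% had one, and 14.2% of admitted bases had such a gene as the nearest, a value within the interval for members. Of the 326 protein-coding genes that flanked members, 66 (20.2%) had a promoter peak. Members lay nearer to promoter summits than bases did, with a median distance of 18113 bp against 54200 bp. A promoter summit lay within 2000 bp of 31 members (12.9% against 1.67% of bases). Promoter summits lie within 500 bp of starts by definition. The part of nearness to starts and of gap length in these differences was not tested. Both neighbours were protein-coding for 138 members, 1 was for 86 and neither was for 16.

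Members were spread over 212 gaps, of which 17 held more than 1. The gap of 20910 bp between lncRNA:CR44603 and lncRNA:CR45695 held 5, the most of any gap. Its members had signals of 591, 497, 311, 237 and 128, and the one with signal 591 ranked 674 and 709 in replicates 2 and 3 but 10096 in replicate 1. The weakest ranked 3342 and 3367 in replicates 1 and 2 and 13896 in replicate 3, so the replicates did not match at both ends of this range. The gap between scyl and lncRNA:CR44720 held 4 members with signals from 138 to 173, and its ranks ran from 1877 to 7930. The gap of 32964 bp between tRNA:Ile-TAT-1-2 and CG13898 held 4, of which 1 with signal 684 was far above the rest (166 to 178). Gaps between Hacd1 and Rh5, and between NijA and CG43245, held 3 each, as did 2 others. The member farthest from any start lay 39434 bp downstream of that of CG41128 and ranked 3565, 2802 and 2178. The next farthest was 32017 bp upstream of CG43245 (ranks 1756, 1425 and 2131), and the members by kni and CheA75a were between 20714 and 20735 bp from a start.

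Genes that pattern the embryo were flanking members in a few cases. Of 19 gap and pair-rule genes, which divide the early embryo into segments, 5 lay beside a member: kni, ems, hry, slp1 and slp2. Such gaps held 6 members, 2.50%, against 1.21% of admitted bases. The 2 members by hry, whose protein is a pair-rule repressor, had signals of 963 and 194. Those by kni, a gap gene, had signals of 387 and 188 and shared a region in replicates 1 and 2 (ranks 1030 and 1502), so they are not independent. The member between the forkhead genes slp1 and slp2 had a signal of 175 and ranked 3425, 5515 and 1745, and the one by the head gap gene ems a signal of 145 and ranks of 3635, 4090 and 4364. The list had 1 gene with a promoter peak (5.26% against 28.2% of all protein-coding genes). Over all 13945 protein-coding genes 348, or 2.50%, lay beside a member or were its nearest start.

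Of 12 Polycomb group genes, whose proteins keep developmental genes silent, 5 lay beside a member: ph-p, ph-d, Psc, Su(z)2 and pho. Their gaps held 4 members, 1.67% against 0.182% of admitted bases. The member by Su(z)2 was the strongest, with a signal of 549.6 and ranks of 706, 876 and 695. That by Psc had a signal of 234 and ranks of 4013, 2873 and 995. That between ph-d and ph-p had a signal of 218 and ranks of 2457, 2269 and 1603, and that by pho, inside a transposable element, a signal of 199 and ranks of 3148, 5511 and 1100. The pairs ph-p with ph-d and Psc with Su(z)2 are neighbouring related genes, so the 5 genes stand for 3 loci. Of these 12 genes 7 had a promoter peak (58.3% against 28.2% of all protein-coding genes). In the other lists, ptc and sog of 14 segment polarity and signalling genes and bin of 7 mesoderm genes lay beside members. The member by sog, which encodes a BMP antagonist, lay 512 bp upstream of Chsy and shared its interval with a stronger summit, so its ranks of 218, 214 and 201 belong to that shared region. The member by ptc, the Hedgehog receptor gene, had a signal of 141. None of the 8 Hox, 18 neural fate, 11 Notch, 5 gut and fat body or 12 insulator genes lay beside a member. These lists flanked 0.151, 0.659, 0.097, 0.140 and 0.0039% of admitted bases, and with 2.50% of all protein-coding genes beside a member, counts of 0 are near that share.

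Over the chromosome arms, the share of members was above that of admitted bases in all 3 replicates on 3L and 4 and below it on 2R and X. On 3L lay 68 members, 28.3% (23.0 to 34.3%), with 29.2 ± 0.83% in the replicates against 24.7% of bases and 19.95% of all thresholded peaks. On 2R lay 41, with 15.8 ± 0.45% in the replicates against 20.5% of bases. The small chromosome 4 held 5 members (2.53 ± 0.30% in the replicates against 0.676% of bases), and 2L, 3R and X held 42, 53 and 31.

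Members held the DRE more often than intergenic DNA and less often than promoter peaks, in all 3 replicates. In windows of 50 bp to each side of the summit, 18 elements were searched on both strands. The full DRE was in 7 members, 2.92% (1.42 to 5.90%), with 2.18, 3.14 and 2.72% in the replicates, against 0.215% of tiled intergenic windows (exact p = 0.25) and 7.02% of all thresholded peaks. At promoter peaks it was in 9.03%, and members were lower in each replicate. Peaks inside genes held the full DRE in 0.365% (3 of 821), below members. The core CGATA, which lies inside the full DRE, was in 44 members (18.3% against 10.5% of tiled windows and 30.2% of all peaks), and replicates gave 18.2 ± 2.95%. Motif 1 (GGTCACAC), another promoter element, was in 2 members (0.833%) against 3.40% of all peaks and 0.128% of tiled windows.

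The Su(Hw) core stood higher in members than in both baselines. It was in 6 members, 2.50% (1.15 to 5.35%), against 0.446% of all peaks, 0.487% of tiled windows and 0.313% of promoter peaks. The replicates gave 1.31, 2.24 and 2.33% (1.96 ± 0.57%), each above both baselines (exact p = 0.25 for each comparison). Members made up 6 of the 19 thresholded peaks with this core, and peaks inside genes held it in 0.365%. The Ets core GGAAGT was in 16 members, 6.67% (4.14 to 10.6%), with 6.35 ± 0.17% in the replicates, against 3.03% of all peaks, 3.99% of tiled windows and 2.84% of promoter peaks (exact p = 0.25). Peaks inside genes held the Ets core in 2.68%. The AP-1 site TGANTCA was in 9 members, 3.75% against 2.65% of all peaks and 1.79% of tiled windows. Peaks inside genes held AP-1 in 4.63%, above members. The Zelda site CAGGTAG was in 3 members, 1.25% against 0.399% of all peaks and 0.430% of tiled windows (interval 0.426 to 3.61%, which holds the tiled value).

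The remaining elements varied in direction and size against the same baselines. The GATA site GATAAG was in 20 members (8.33% against 7.16% of all peaks and 4.02% of tiled windows) and the Pho core GCCAT in 54 (22.5% against 14.5 and 19.7%). The E-box CACGTG was in 6 (2.50% against 1.24 and 1.09%) and the STAT site TTCNNNGAA in 8 (3.33% against 2.65 and 3.02%). Peaks inside genes held STAT in 3.90%, above members, and GATA, Pho and the E-box in 6.82, 13.9 and 1.22%, below members. The TATA box TATAAA was in 27 (11.25% against 15.6 and 12.6%), the homeodomain core TAATTA in 12 (5% against 7.61 and 7.45%) and the CTCF core AGGNGGC in 7 (2.92% against 2.72 and 3.39%). A run of A was in 6 (2.50% against 4.69 and 5.50%), the CA repeat in 2 (0.833% against 1.10 and 2.03%), the GAGA repeat in 1 (0.417% against 0.869 and 1.10%) and the RNA polymerase III B box GGTTCGA in 1 (0.417% against 0.634 and 0.607%). None of the 18 elements was found in 88 members. This count has no counterpart here for tiled windows or other peaks, so it cannot be read as a trait of members.

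**Figure D4:**
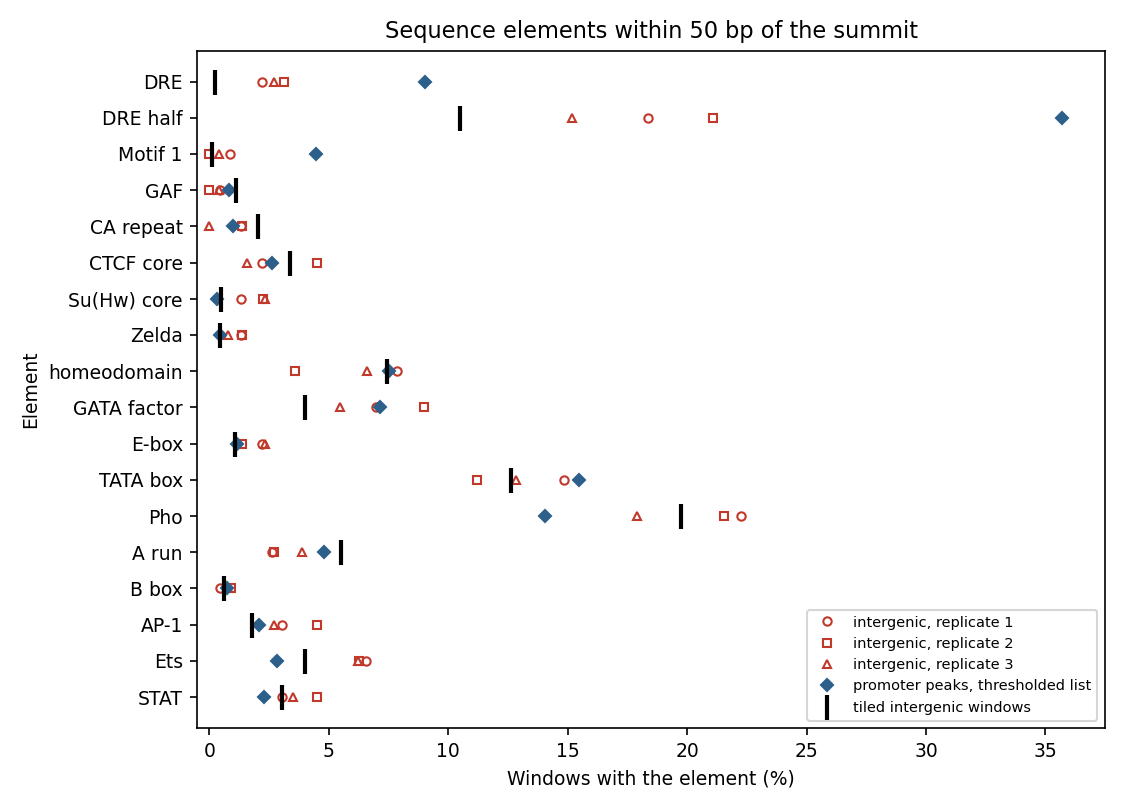
Share of windows (x axis, %; 50 bp on both sides of the centre) with each of 18 sequence elements at intergenic summits among the strongest regions of each replicate (open symbols), at promoter peaks of the thresholded list (diamonds) and in tiled intergenic windows (bars). DRE and its core lie between tiled windows and promoter peaks, and the Su(Hw) core and Ets lie above both.

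The scan of 8-base sequences led with variants of 1 sequence. Of the 87 sequences found in 7 or more members, the 3 with the largest ratio to tiled windows were ACTGTGAC, AGTCACAG and CAGTCACA, in 13, 13 and 15 members. CAGTCACA was in 6.25% of members, 0.264% of tiled windows, 1.19% of promoter peaks and 3.05% of peaks inside genes. The shared run AGTCAC was in 41 members, 17.1% (12.8 to 22.4%), against 2.66% of tiled windows. Replicates 1, 2 and 3 gave 19.2, 12.1 and 15.6%. Peaks inside genes held it in 14.6% and promoter peaks in 9.19%, so it was not particular to intergenic peaks. The shorter GTCAC, which also lies inside Motif 1, was in 26.7% of members and 26.1% of promoter peaks. It was in 25.8% of peaks inside genes and 9.75% of tiled windows. Members above the median signal of all peaks held AGTCAC in 21 of 88 windows (23.9%) and the others in 20 of 152 (13.2%). GATGGCGC was in 7 members (2.92%) against 0.191% of tiled windows, 0.375% of promoter peaks and 0.365% of peaks inside genes. Its share in replicates 1, 2 and 3 was 2.62, 2.24 and 0.778%, lowest in replicate 3. These sequences were chosen for their ratio on these peaks, so their values are a description and were not tested.

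**Figure D5:**
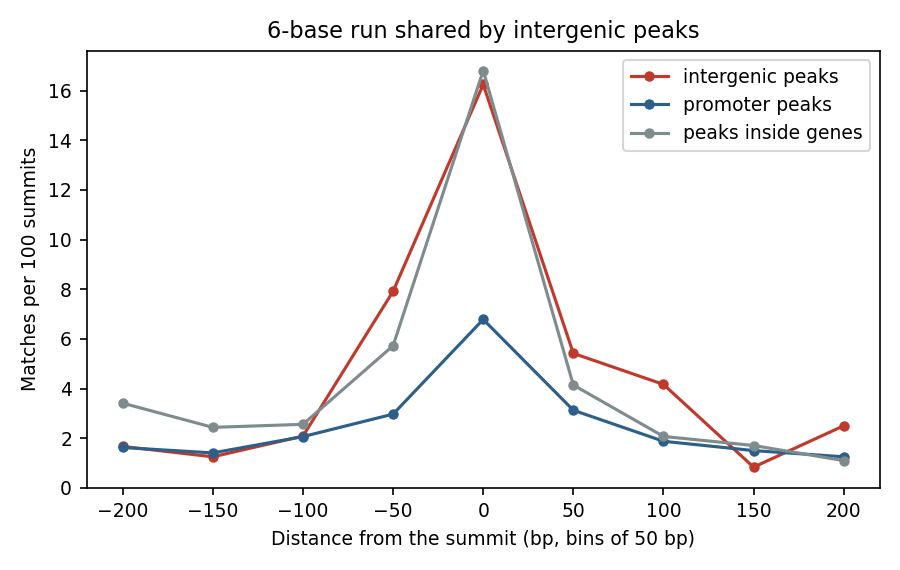
Matches of the 6-base run on either strand per 100 summits (y axis) in bins of 50 bp by distance from the summit (x axis). The central bin holds 16.25 matches per 100 intergenic summits, 16.8 per 100 summits inside genes and 6.78 per 100 promoter summits, and bins 150 bp or more away hold 0.833 to 3.41.

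Since the run was picked from windows around these summits, its excess near them is partly fixed by that choice. Matches were counted, so a window with several counts more than once. The central bin of 50 bp held 39 matches over the 240 members, or 16.25 per 100 summits, and the bins centred 150 bp to either side held 3 and 2. Peaks inside genes had 16.8 matches per 100 summits in the central bin, and promoter peaks 6.78.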

How the data were processed

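Peak lists on dm6 were used for the 3 replicates, the pooled replicates and the list kept by the irreproducible discovery rate procedure, per the labels. Each deposited region carried the authors' signal value (enrichment) and a −log10 q-value whose highest value was shared by many regions. Signal scales differed between lists, so lists were compared by rank. The caller, aligner and their versions are not given in the sources used here, and read depth is unknown. The replicate files held regions of 1 replicate each, numbering 30000, 28051 and 24171, and the pooled list held 27868.

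Genes and starts came from Ensembl release 115. Sequence was read from the RefSeq genome file, whose arms had the lengths of dm6 (X, 23542271 bp). Only the 6 main arms were used, with 18164 genes. Transposable elements were not counted as genes. A member was found in a replicate when its summit lay in 1 of the 4260 strongest regions there. Tiled windows were 359004 adjacent windows, each an admitted base with 50 bp to each side. Copies were searched with BLAST 2.17.0. Tests were exact two-sided sign-flip permutation tests over 3 replicates, which cannot go below p = 0.25, and peaks were not used as replicates. P-values concern only these samples, and 3 differences of the same sign give 0.25 whatever their spread. Intervals (Wilson, 95%) reflect counting error alone. Python 3.11.15, numpy 2.4.6, pandas 2.3.3 and scipy 1.17.1 were used, and the rule, the element search and the test were tested on simulated data.

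Members and lists were chosen with earlier results of these data known. Named peaks were the 20 strongest, those at the distance limit, in transposable elements, with a DRE, farthest from a start, beside listed genes or sharing a gap. The Su(Hw) windows, the 8-base scan and the run AGTCAC were chosen after their values were seen. All 106 listed symbols were matched, 2 through a synonym. Lists on dm3 were not used.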

Additional observations from a re-analysis of the deposited data

How the results depend on the processing

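Several differences kept the direction of their mean over replicates under every setting tried. They were ranks of members below those of other peaks, nearness to starts and to gene ends, and the higher share of diverging neighbours. The higher shares of the DRE, the Su(Hw) core and the Ets core than in tiled windows also kept it. Among peaks above the median signal, not every replicate shared that direction for rank, diverging neighbours or the Su(Hw) core (exact sign-flip p = 0.5 for each). There the diverging share of members in the thresholded list was 20.5% against 20.4% of bases. The difference from bases in median distance to a start ran from -6063 to -2566 bp, that in the share within 500 bp of a gene end from 12.5 to 16.2 percentage points, and that in rank from 109 to 640. The share of summits that were intergenic was 3.92% over 1000 bp from every start, 8.90% over 250 bp and 7.18% with protein-coding genes only. It was 4.13% among peaks above the median signal and 4.92 to 4.999% leaving out a replicate. For this share, rank and the promoter peaks of nearest genes, leaving out a replicate also filtered the thresholded list. Only the 3191 to 3441 peaks found in each remaining replicate were kept. The effect of this filter was not tested apart from that of the replicate. The share of members found in all replicates was 63.6% over 250 bp and 63.7% with protein-coding genes only, against 70.3% of all thresholded peaks. Above the median signal it was 70.5%, against 75.1% of all such peaks, with the 2130 strongest regions of each replicate used. Leaving out a replicate gave 65.4 to 71.7%, against 74.9 to 80.8% of all peaks, where fewer lists had to hold the peak. The share whose nearest protein-coding gene had a promoter peak was 13.2% over 1000 bp, against 14.3% of bases. Over 250 bp it was 46.2% against 14.2%. There, summits between 250 and 500 bp from a start are themselves the promoter peak of that gene, so the rise follows from the definition. Above the median signal it was 12.5% against 6.90% of bases, and leaving out a replicate 12.3 to 14.5% against 9.99 to 10.8%. Members and genes with a promoter peak were counted from the smaller peak list in these last settings.

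Other differences turned. Converging neighbours were 1.53 percentage points above bases over 1000 bp and 1.29 above with protein-coding genes only. Neighbours in tandem gave -0.16 over 1000 bp, -4.25 with protein-coding genes only, -0.084 against windows with no copy elsewhere and -0.044 to 1.36 leaving out a replicate. They stood above bases by 8.04 points among peaks above the median signal (exact sign-flip p = 0.25) and by 3.15 over 250 bp. Against tiled windows, in percentage points, Pho gave -1.14 over 250 bp, -0.11 with protein-coding genes only, -0.59 against windows with no copy and -0.012 to 2.17 leaving out a replicate. TATA gave -0.018 with 1 summit per merged region, -0.79 with protein-coding genes only, -0.26 above the median signal and -0.60 to 1.22 leaving out a replicate. The B box gave -0.41 over 1000 bp, -0.099 with protein-coding genes only, -0.23 above the median signal and -0.0094 with transposable elements counted as genes. The CTCF core gave 0.23 with protein-coding genes only, and with 100 bp to each side the run of A gave 0.62 and the homeodomain core 0.19. The cause was not tested. The settings with windows that had no copy, and all settings for distances, were added after seeing the data. No paired analysis was possible because there was 1 group. No control library was analysed here and read depth was unknown, so a weak region and a shallow library could not be told apart.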
